A study of Mus musculus with 9 samples.

Results

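Long intergenic noncoding RNAs (lincRNAs) were followed in the mouse left ventricle after ischemia-reperfusion (I/R). The genes described are those with the lincRNA biotype in GENCODE M21 whose mean level reached 1 count per 1M total counts in at least 1 of the 3 groups, with no scaling factors. This rule kept 85 of 1569 lincRNA genes in a table of 38293 genes. The genes were thus chosen by their measured group means, which are given as a description. The lowest genes inside it were Gm20732, with a highest group mean of 1.05 counts per 1M, and D130017N08Rik, with 1.06. Just outside it were Gm26624, with 0.994, and Gm10010, with 0.967. Of the 85 genes, 55 reached the level in every group and 30 were under it in some group. A gene among these 30 entered through the group in which it was high, so counts are given for both sets apart.

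Each of the 9 libraries is titled as a separate mouse, and all mice were male C57BL/6 aged 8 weeks. Sham-operated mice 1, 2 and 3 formed the control group, mice 4, 5 and 6 were taken 1 day (24 hr) after I/R, and 3 mice were taken 14 days after I/R. For I/R, the left anterior descending artery was tied for 1 hour and then freed. All samples, sham included, carry the tissue label of an infarcted left ventricular region, and the time at which sham tissue was taken was not given. The 3 count columns at 14 days have the same header, and A, B and C serve here as their names.

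A lincRNA is a long transcript from between protein-coding genes that is not known to encode a protein. Some lincRNAs build nuclear bodies or hold protein complexes on chromatin, some act on the transcription of the gene beside them, some bind microRNAs, and some are hosts whose introns or exons are cut into microRNAs or small nucleolar RNAs (snoRNAs). In the heart, members of the class are known from nuclear bodies of many cell types, from muscle differentiation and from the response to infarction.

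The microRNA hosts are introduced by the sequences they carry. Mir17hg, at chr14:115042879-115046727 on the plus strand (GRCm38), is the host transcript of the miR-17-92 cluster, a set of microRNAs linked to cell proliferation. The mature sequences are shown because the cluster falls into few families by seed, the bases 2 to 8 in capitals that pair with targets (RefSeq, GRCm38.p6).
mmu-miR-17-5p: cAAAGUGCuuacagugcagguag
mmu-miR-20a-5p: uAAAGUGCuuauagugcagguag
mmu-miR-18a-5p: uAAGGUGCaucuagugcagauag
mmu-miR-19a-3p: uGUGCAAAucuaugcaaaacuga
mmu-miR-19b-3p: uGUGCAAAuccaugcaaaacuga
mmu-miR-92a-3p: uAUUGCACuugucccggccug

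miR-17-5p and miR-20a-5p share 1 seed, miR-19a-3p and miR-19b-3p share another, and miR-18a-5p and miR-92a-3p each have their own. A different host, 6720427I07Rik (chr13:48532905-48546500, minus strand), carries 3 let-7 microRNAs, a family known from differentiated tissue. They share the seed GAGGUAG.
mmu-let-7a-5p: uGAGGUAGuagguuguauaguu
mmu-let-7d-5p: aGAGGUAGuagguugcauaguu
mmu-let-7f-5p: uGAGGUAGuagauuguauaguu

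The third sequence set belongs to 1700020I14Rik (chr2:119594297-119607502, plus strand), which RefSeq lists as Oip5os1 with the synonym Cyrano. Cyrano is known for a highly complementary site for miR-7 that leads to the destruction of that microRNA. In its transcript of 8300 bases, the miR-7 seed match occurred at bases 762 and 2952. At base 2952, a further 13 bases paired with the 3′ part of the microRNA, and at base 762 none did. Capitals mark the seed in the microRNA and the paired bases in the site, which is written 5′ to 3′.
mmu-miR-7a-5p: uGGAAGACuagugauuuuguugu
site in 1700020I14Rik: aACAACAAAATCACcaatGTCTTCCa

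The promoters of 3 genes with large changes are shown because the letters of a known motif lie in each, every promoter running from 250 bases before to 50 after the RefSeq start. Mirt1 rose and has the AP-1 motif TGACTCA in capitals 140 bases before its start (chr19:53464747-53465046, minus strand). Gm14005, which RefSeq lists as Morrbid, rose and has the same motif on the other strand, TGAGTCA, 1 base before its start (chr2:128429302-128429601, minus strand). That RefSeq start lies 73414 bases from the start GENCODE gives. Gm20619 fell and has TGACCTT, a motif of estrogen-related receptors (AAGGTCA) on the other strand, 6 bases after its start (chr6:6248409-6248708, plus strand).
Mirt1 promoter: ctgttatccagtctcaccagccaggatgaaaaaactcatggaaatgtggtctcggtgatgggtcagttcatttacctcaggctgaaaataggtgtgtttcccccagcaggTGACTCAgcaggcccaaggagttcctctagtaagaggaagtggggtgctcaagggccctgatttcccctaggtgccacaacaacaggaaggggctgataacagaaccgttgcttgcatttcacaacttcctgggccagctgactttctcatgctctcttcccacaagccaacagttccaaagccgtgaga
Gm14005 promoter: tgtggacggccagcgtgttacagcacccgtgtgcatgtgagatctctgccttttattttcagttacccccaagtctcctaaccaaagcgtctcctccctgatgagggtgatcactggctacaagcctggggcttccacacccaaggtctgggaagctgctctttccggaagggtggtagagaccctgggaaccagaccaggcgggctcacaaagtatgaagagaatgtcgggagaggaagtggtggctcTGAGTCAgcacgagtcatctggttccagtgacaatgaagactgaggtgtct
Gm20619 promoter: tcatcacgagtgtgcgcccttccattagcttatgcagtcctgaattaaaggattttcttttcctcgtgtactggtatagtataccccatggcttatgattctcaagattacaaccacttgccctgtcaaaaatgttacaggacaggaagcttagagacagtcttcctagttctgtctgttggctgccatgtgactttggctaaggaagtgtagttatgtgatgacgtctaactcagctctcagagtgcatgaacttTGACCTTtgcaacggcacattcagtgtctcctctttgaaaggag

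These motifs are common, and a match is a description of letters. The AP-1 letters TGANTCA, read on both strands, occurred in 7.87% of 27025 RefSeq promoters of the same length. They occurred in 3 of the 49 promoters matched to the lincRNA genes by symbol or synonym. AAGGTCA occurred in 4.65% of all promoters and in 4 of the 49. Of the 49, 8 belonged to genes that rose at 1 day and 21 to genes that fell. The 8 include Gm38399, matched by synonym to the coding gene Nav1, whose start used here lies 102750 bases from the GENCODE start. They also include Gm12295, at 77965 bases, and Gm14005. The AP-1 letters were in 2 of the 8 and 0 of the 21, and AAGGTCA in 0 of the 8 and 1 of the 21. The promoters shown were picked for these letters, and a link of motif to direction was not tested. Also searched on both strands were TGACGTCA (1.87% of all, 4 of the 49), CACGTG (7.22%, 6), the MEF2 motif (3.72%, 1), TTCNNNGAA (8.37%, 4) and TATAAA (14.2%, 7).

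The libraries held 20215781 to 36816818 counts, of which 52.0% to 71.8% were from mitochondrially encoded and ribosomal RNA genes. Mouse 6 lay nearest to sham among the 1-day mice for 80.9% of the genes that fell and 83.4% of the genes that rose at 1 day. Cardiomyocyte marker genes summed to 57278 to 63364 CPM in sham, 31718 to 47215 at 1 day and 44258 to 57871 at 14 days, where CPM is counts per 1M counts of a library scaled by trimmed means (TMM), and 5 of the 7 fell at 1 day. Neutrophil markers ran from 1.26 to 4.6 CPM in sham, from 19.2 to 67.9 at 1 day and from 1.45 to 3.15 at 14 days, and all 5 rose at 1 day. Lymphocyte markers were too low to be tested. In tissue RNA, fewer cells of a type and less RNA per cell cannot be told apart, and the part of these marker shifts in the lincRNA results was not tested.

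Most of the lincRNA signal came from very few genes. Malat1 and Neat1 together gave 87.4% to 95.1% of the counts of the 85 genes. Per kilobase of exon, Malat1 had the highest mean level over the 9 libraries, at 652 CPM per kb. It was followed by 1700020I14Rik with 27.8 and Neat1 with 25.2, then by Gm5532 with 8.62 and Tmem250-ps with 7.68. By group mean, 3 genes exceeded 100 CPM in some group, 4 peaked from 10 to 100, and 78 stayed under 10, including 30 that stayed under 2. The share of all counts held by the 85 genes was 0.470% ± 0.0285 for sham, 0.812% ± 0.0828 for 1 day and 0.435% ± 0.0436 for 14 days (SD, n = 3). Leaving mitochondrially encoded and ribosomal RNA genes out of the total, the means were 1.46%, 2.0% and 1.34%. All 3 libraries at 1 day lay above all others, and an exact permutation test of 3 against 3 libraries could not give a p below 0.1. Malat1, Neat1 and 1700020I14Rik set aside, the summed TMM-scaled level of the other genes was 270.4 ± 10.9 CPM for sham. It was 214.7 ± 16.3 for 1 day and 268.2 ± 9.23 for 14 days (SD, n = 3). On this summed level, every 1-day library lay below every sham and 14-day library. The shares above are not TMM-scaled, so their direction cannot be set against that of this sum. The TMM factors were 0.774 to 0.948 in sham and 1.07 to 1.46 at 1 day, and the lower sum at 1 day depends on them.

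The first comparison asked which lincRNAs differed from sham 1 day after I/R. In the quasi-likelihood test of edgeR (adjusted p under 0.05 over 14124 genes), 13 lincRNA genes rose and 34 fell. Among all genes tested, 29.4% were called higher and 24.8% lower. The groups did not overlap for 63.2% of all genes at 1 day and 39.4% at 14 days against sham. Genes named below for their fold were picked from those without overlap, so their separation is a description. Of the 55 genes that reached the rule's level in every group, 5 rose and 26 fell, with a median log2 fold of -0.49, against a median of 0.04 over all genes. Of the other 30, 8 rose and 8 fell. The share called, 55.3%, was near the 54.2% of all genes, and the sign of the balance depended on scaling. With library totals alone and no scaling factors, 24 lincRNA genes were higher and 13 lower. Under this setting the median of all genes tested shifted up by 0.48 on the log2 scale, and the calls of 1700020I14Rik, 1810058I24Rik, 2610035D17Rik, AW112010, Carmn, Fam120aos, Lncpint, Lppos and Tmem250-ps were lost among the named genes that fell.

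**Figure D1:**
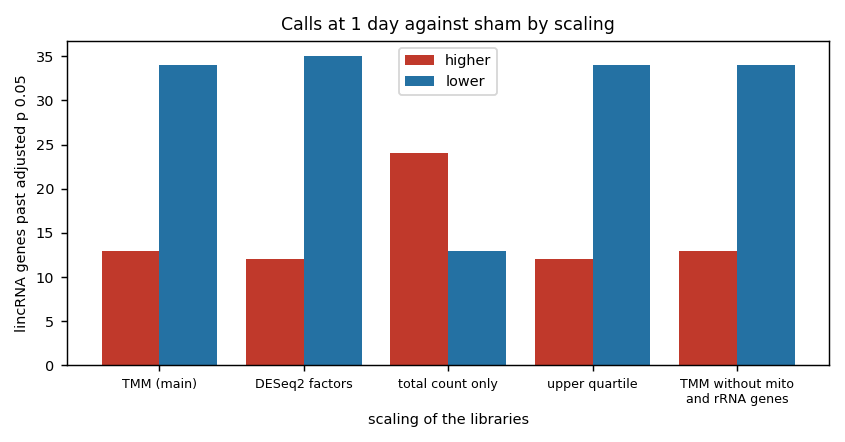
Number of lincRNA genes past adjusted p 0.05 at 1 day against sham (y axis; higher in red, lower in blue) under 5 ways of scaling the libraries (x axis). The 4 scalings that use factors gave 12 or 13 higher and 34 or 35 lower, whereas total count alone gave 24 higher and 13 lower. Over all genes tested, total count alone called 6859 higher and 1058 lower.

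**Figure D2:**
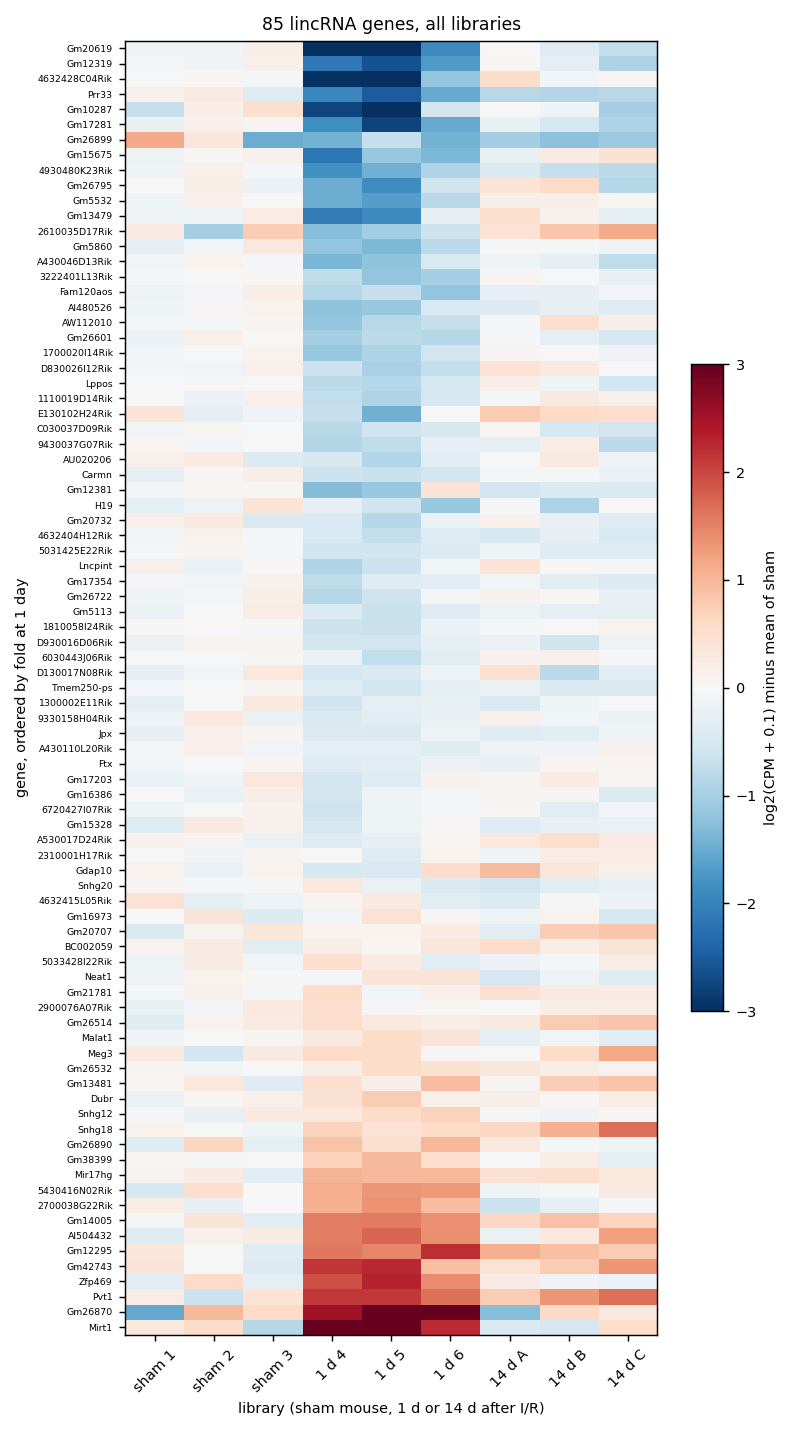
Level of each of the 85 lincRNA genes (rows, ordered by log2 fold at 1 day) in each of the 9 libraries (columns), as log2(CPM + 0.1) minus the mean of the 3 sham libraries, with colours ending at 3 and -3. The 1-day columns stand apart at both ends of the order, with mouse 6 paler for most of the genes that fell, and the 14-day columns are mostly near sham.

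The abundant nuclear-body lincRNAs did not pass the test against sham. Malat1 (chr19:5795690-5802672, minus strand), an RNA of nuclear speckles, had 4026, 4320 and 4565 CPM in sham mice 1, 2 and 3. At 1 day it had 5168, 6265 and 5616 in mice 4, 5 and 6. At 14 days it had 3553, 4082 and 3396 CPM. The 1-day libraries were all higher than sham, but the log2 fold of 0.40 (SE 0.19) gave an adjusted p of 0.094 in edgeR. The test of DESeq2 gave 0.37 with an adjusted p of 0.0035, total count alone 0.88 with 0.00079, and the fit without mouse 6 0.40 with 0.043. From 1 day to 14 days Malat1 fell by 0.63 (adjusted p 0.017), a call lost without library A, without library C and in a fit of those groups alone.

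Neat1 (chr19:5824708-5845478, minus strand), the scaffold of paraspeckles and a close neighbour of Malat1, had 476, 568 and 541 CPM in sham, 510, 685 and 686 at 1 day and 370, 477 and 401 at 14 days. Its groups overlapped between sham and 1 day (log2 fold 0.25, SE 0.17, adjusted p 0.23), and total count alone gave 0.71 with an adjusted p of 0.0032. It fell from 1 day to 14 days by 0.59 (adjusted p 0.012). Of 15 genes for paraspeckle proteins, 8 rose and 1 fell at 1 day, with a median log2 fold of 0.29. Smarca4, a chromatin remodeller, was at 0.66, Rbm14 at 0.60 and Nono at 0.57. The share of all genes called at 1 day was 29.4% higher and 24.8% lower. At 14 days against sham none of the 15 rose and 2 fell, Dazap1 at -0.85 and Smarca4 at -0.32. Of all genes, 8.75% were higher and 5.64% lower at 14 days. Of 15 nuclear speckle and splicing factors, 4 rose and none fell at 1 day, a share of higher calls near that of all genes, with U2af2 at 0.97.

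1700020I14Rik (Cyrano), the lincRNA with the miR-7 site printed above, was the third most abundant in CPM and fell at 1 day. Sham libraries had 255, 268 and 292 CPM, 1-day libraries 124, 143 and 185, and 14-day libraries 288, 273 and 252. The 1-day group lay wholly below both others, which overlapped. The log2 fold was -0.85 (SE 0.15, adjusted p 0.00079) at 1 day and -0.01 (SE 0.15, adjusted p 0.98) at 14 days. With total count alone the 1-day value was -0.39 and just missed the threshold (adjusted p 0.051). Mature miR-7 was not measured in these libraries of long RNA.

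Among the genes that rose, Mirt1 (chr19:53443230-53464796, minus strand), named for its association with myocardial infarction, went from near absence to clear detection. It had 0.126, 0.168 and 0 CPM in sham, 2.44, 2.26 and 0.762 at 1 day, and 0.035, 0.029 and 0.164 at 14 days. Mouse 6 was the lowest of the 1-day mice and still above every other library. Summed over libraries these were 8 counts in sham and 182 at 1 day, a ratio of 17.2 per scaled library size with an exact 95% interval for counting error only from 8.53 to 40.4. The fitted log2 fold was 3.98 (SE 0.64, adjusted p 0.00050). Its exons share 11.8% of their bases with 4833407H14Rik, a name that RefSeq lists as a synonym of Mirt1. The nearest coding gene, Smndc1, was at 0.12 (adjusted p 0.38).

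Pvt1 (chr15:62037986-62378096, plus strand) lies downstream of Myc, a transcription factor of cell growth, and is known to act with it. Pvt1 had 0.879, 0.438 and 1.02 CPM in sham, 3.53, 3.57 and 2.55 at 1 day and 1.32, 1.99 and 2.53 at 14 days. Every library after I/R was above every sham library. Pvt1 was at a log2 fold of 2.12 (SE 0.32, adjusted p 0.00031) at 1 day and 1.38 (SE 0.33, adjusted p 0.020) at 14 days. The 14-day call was lost without sham mouse 1 or 2 or without library B or C. Myc rose too, from 0.850 ± 0.151 CPM in sham to 10.9 ± 2.88 at 1 day and 2.04 ± 0.399 at 14 days (SD, n = 3), with log2 folds of 3.66 and 1.22.

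Gm14005 (Morrbid), known from myeloid cells for restraining its neighbour Bcl2l11, a gene for a protein that promotes cell death, also rose. It had 0.712, 1.01 and 0.575 CPM in sham, 2.38, 2.38 and 2.11 at 1 day and 1.21, 1.47 and 1.23 at 14 days. The 3 groups did not overlap. Gm14005 was at a log2 fold of 1.53 (SE 0.23, adjusted p 0.00030) at 1 day and 0.72 (SE 0.24, adjusted p 0.067) at 14 days. Bcl2l11 fell at 1 day by 1.05 on the log2 scale (SE 0.18, adjusted p 0.00071), from 11.2 ± 1.41 to 5.49 ± 1.70 CPM (SD, n = 3). Markers of monocytes summed to 40.3 to 94.6 CPM in sham and 249.7 to 304.9 at 1 day, with all 4 higher, and their part in the rise of Gm14005 was not tested.

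Gm12295 (chr11:65277654-65365798, minus strand) lies on the strand of Myocd, a coactivator of muscle genes, 7.67 kb away. It had 1.93, 1.52 and 1.15 CPM in sham, 4.66, 4.33 and 7.30 at 1 day and 3.32, 2.87 and 2.62 at 14 days. Here mouse 6 was the highest library, and all libraries after I/R were above sham. The log2 fold was 1.78 (SE 0.24, adjusted p 0.00017) at 1 day and 0.91 (SE 0.25, adjusted p 0.032) at 14 days. The 14-day call was lost without any single 14-day library, without sham mouse 2 or 3, and with limma-voom. Myocd was at -0.29 at 1 day (adjusted p 0.070) and fell at 14 days by 0.66 (adjusted p 0.0082).

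Mir17hg, the host of the cluster printed above, had 1.30, 1.48 and 0.958 CPM in sham, 2.58, 2.50 and 2.55 at 1 day and 1.73, 1.79 and 1.55 at 14 days. The 1-day libraries were close together and above all others. Its log2 fold was 0.99 (SE 0.19, adjusted p 0.0012) at 1 day and 0.41 (SE 0.20, adjusted p 0.18) at 14 days. Of 10 microRNA hosts it alone was called at 1 day against sham by edgeR with all libraries, where 54.2% of all genes were called. The let-7 host 6720427I07Rik had 6.70, 7.38 and 8.12 CPM in sham and 4.80, 6.63 and 7.21 at 1 day, which overlap (log2 fold -0.26, SE 0.17, adjusted p 0.20). The Mir101a host E130102H24Rik was at -0.72 at 1 day (adjusted p 0.11; -1.10 and 0.013 without mouse 6) and rose from 1 day to 14 days by 1.37 (adjusted p 0.0053). Of 13 genes for microRNA processing and Argonaute proteins, 4 rose at 1 day (Dgcr8, Xpo5, Ago2 and Dicer1, at 0.59, 0.54, 0.53 and 0.33) and 3 fell (Ago4, Tnrc6b and Tnrc6c), both near the shares of all genes (29.4% and 24.8%).

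Of the 6 snoRNA hosts, 2 rose at 1 day (Snhg12 and 2700038G22Rik), near the 29.4% of all genes called higher. At 14 days 1 rose (Snhg18), where 8.75% of all genes were called higher. Snhg12, which carries 4 snoRNA genes, had 1.30, 1.15 and 1.66 CPM in sham and 1.70, 2.03 and 2.24 at 1 day. Its log2 fold was 0.55 (SE 0.21, adjusted p 0.041), and the call was lost under most alternatives. 2700038G22Rik, the host of Snord93, rose by 1.31 (SE 0.31, adjusted p 0.0039), from 0.461, 0.303 and 0.383 CPM in sham to 0.905, 1.11 and 0.807. Of 10 core proteins of snoRNA particles, 8 rose and 1 fell at 1 day, where 29.4% of all genes were higher and 24.8% lower. Their median log2 fold was 1.04 against 0.04 over all genes. Nhp2 was at 1.66, Nop58 at 1.41 and Nop56 at 1.26. None of the 10 was called at 14 days against sham, where 14.4% of all genes were called.

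Snhg18 (chr15:32240565-32244662, minus strand), the host of Snord123, was called higher than sham at 14 days. It had 1.97, 1.85 and 1.66 CPM in sham, 2.96, 2.50 and 2.82 at 1 day and 2.87, 3.90 and 5.97 at 14 days. Snhg18 was at 0.59 (SE 0.25, adjusted p 0.066) at 1 day, which passed the threshold in a fit without library A or C and with total count alone. At 14 days it was at 1.19 (SE 0.25, adjusted p 0.011), which missed the threshold without sham mouse 2 (adjusted p 0.058). The 1-day and 14-day libraries overlapped, and the difference of 0.60 between them (adjusted p 0.044) was lost under most alternatives, with 0.32 (adjusted p 0.18) without library C. Activated fibroblast markers, of which 5 of 5 rose at 14 days, had the same order, at 276.6, 594.3 and 922.6 CPM in A, B and C. This order was not particular to them. Fibroblast, macrophage, monocyte, neutrophil and lymphocyte markers also went up from A to C. Cardiomyocyte markers went down, at 57871, 49416 and 44258 CPM, as did smooth muscle and pericyte markers. The part of any of these in the Snhg18 result was not tested. Sema5a, a guidance molecule whose start lies 148 bases from that of Snhg18 on the other strand, was at 0.13 at 14 days (adjusted p 0.47).

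**Figure D3:**
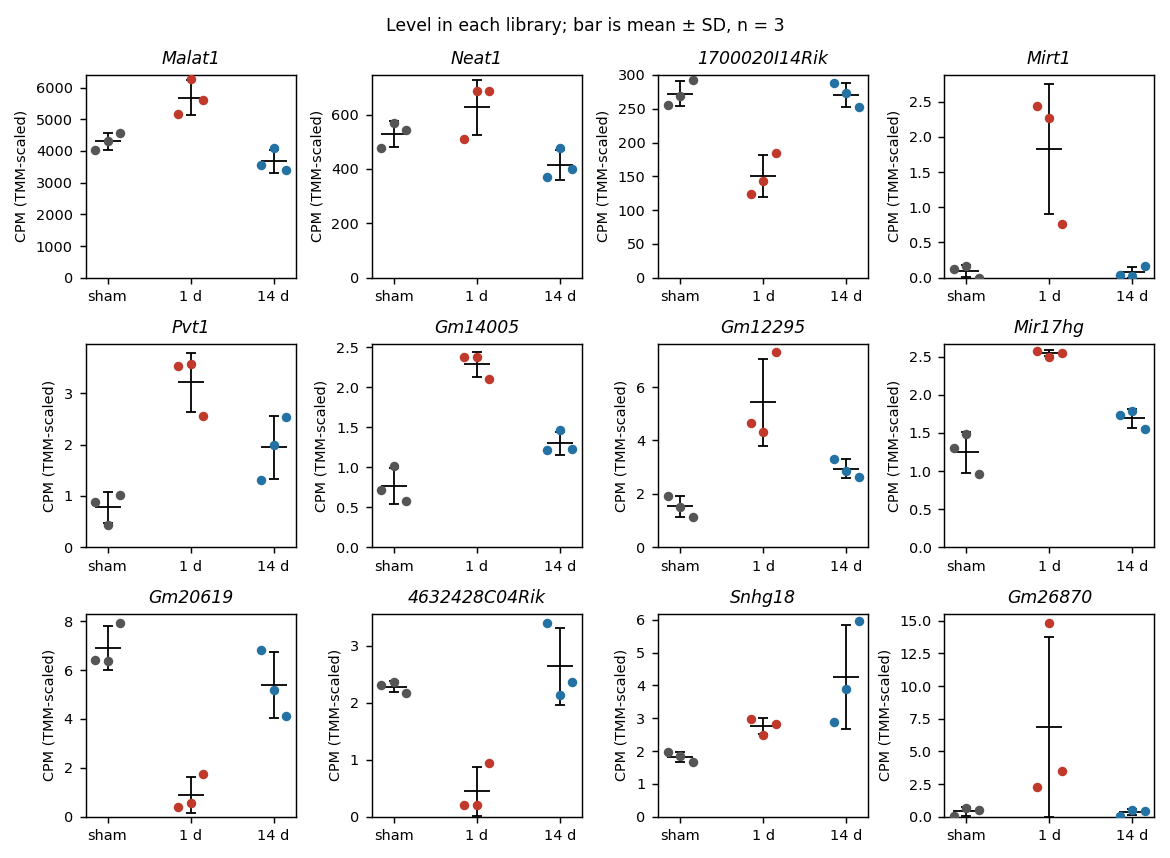
CPM (y axis, from 0) of 12 lincRNA genes in each library of sham, 1 day and 14 days (x axis), with each point 1 library and the bar the mean and SD (n = 3). Mirt1 is near 0 outside 1 day, 1700020I14Rik and Gm20619 dip at 1 day, Snhg18 lies above sham in all libraries after I/R, and Gm26870 has 1 library at 14.8 CPM.

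Other genes rose with limits on their identity. Zfp469, which GENCODE M21 calls a lincRNA and RefSeq calls protein-coding, rose by 1.95 (SE 0.32, adjusted p 0.00047), from 0.544, 1.11 and 0.575 to 3.01, 3.93 and 2.06 CPM. Gm42743 rose by 1.88 (SE 0.38, adjusted p 0.0024). It had 3.06, 2.33 and 1.73 CPM in sham and 10.5, 11.5 and 4.44 at 1 day. Gm42743 shares up to 17.0% of its exon bases with another gene. Exon bases are shared with the histone gene Hist2h2bb, on the same strand with starts 0.031 kb apart. Hist2h2bb was not among the counted genes, so reads of the 2 cannot be told apart here. Cell cycle markers, of which 3 of 3 tested rose, had the same order, at 52.9, 70.7 and 18.1 CPM in mice 4, 5 and 6 against 14.7 to 15.7 in sham. Neutrophil markers, of which 5 of 5 rose, had this order too, at 62.6, 67.9 and 19.2 CPM. Mouse 6 lay nearest to sham for 83.4% of all genes that rose at 1 day. The part of either list in the Gm42743 result was not tested. Gm26870 had 0.042, 0.708 and 0.511 CPM in sham and 2.31, 14.8 and 3.54 at 1 day, a log2 fold of 3.97 (SE 0.94, adjusted p 0.0063) that was 2.74 without mouse 5. It overlaps 6 other predicted genes near the start of chromosome 9, and its counts are uncertain. AI504432, 1.43 kb from the potassium channel gene Kcna3, rose by 1.76 (adjusted p 0.0029), and 5430416N02Rik rose by 1.21 (adjusted p 0.0022).

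Gm20619 (chr6:6248659-6378675, plus strand) had the largest fall at 1 day among the 85 genes. Its levels were 6.41, 6.37 and 7.92 CPM in sham, 0.407, 0.556 and 1.75 at 1 day and 6.82, 5.19 and 4.13 at 14 days. All 3 mice at 1 day, mouse 6 included, were below every other library. Gm20619 was at a log2 fold of -3.06 (SE 0.41, adjusted p 0.00026) at 1 day and -0.34 (SE 0.33, adjusted p 0.52) at 14 days. Slc25a13, a mitochondrial carrier gene that starts 31.5 kb away on the other strand, fell by 1.38 (SE 0.22, adjusted p 0.00053). The cardiomyocyte marker sums of 33415, 31718 and 47215 CPM in mice 4, 5 and 6 were also below sham, and their part in this fall was not tested.

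4632428C04Rik (chr16:30008667-30021430, plus strand), 43.0 kb from the Notch target Hes1, had 2.30, 2.36 and 2.17 CPM in sham, 0.204, 0.199 and 0.941 at 1 day and 3.39, 2.14 and 2.37 at 14 days. It fell at 1 day by 2.50 (SE 0.45, adjusted p 0.00097), while Hes1 was at -0.22 (adjusted p 0.19). Gm12319 fell by 2.55 (SE 0.38, adjusted p 0.00028), from 1.21, 1.15 and 1.41 to 0.204, 0.119 and 0.314 CPM. Its neighbour on the same strand, 97 bases away, is Pfn1, the actin-binding profilin, which rose by 1.08 (SE 0.17, adjusted p 0.00046). Gm17281 fell by 2.03 (SE 0.28, adjusted p 0.00020), from 4.44, 5.70 and 5.50 to 1.38, 0.675 and 1.75 CPM. It starts 41 bases from Pacsin3, a gene of endocytosis with which it shares exon bases and which rose by 0.92 (adjusted p 0.00027). Gm15675 fell by 1.71 (SE 0.31, adjusted p 0.00093), and its neighbour Cd55, a brake on complement, fell by 1.09 (adjusted p 0.0038).

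Prr33 (chr7:142491074-142506771, minus strand) was low at both times. It had 2.72, 2.97 and 1.85 CPM in sham, 0.566, 0.357 and 0.807 at 1 day and 1.35, 1.29 and 1.35 at 14 days. The 3 groups did not overlap. Prr33 was at a log2 fold of -2.16 (SE 0.28, adjusted p 0.00013) at 1 day and -0.94 (SE 0.25, adjusted p 0.027) at 14 days, the latter lost without sham mouse 1 or 2, without library B or C and with total count alone. Its span touches Lsp1, a gene of leukocytes, which rose by 0.74 at 1 day (adjusted p 0.00065) and 0.66 at 14 days (adjusted p 0.0082).

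Other genes fell by smaller amounts. Gm5532 had 20.6, 25.1 and 22.5 CPM in sham, 8.06, 7.11 and 12.6 at 1 day and 25.7, 25.8 and 23.7 at 14 days (1-day log2 fold -1.31, SE 0.18, adjusted p 0.00020). AW112010, known from immune cells as an interferon-induced RNA, fell from 5.15, 5.22 and 5.69 to 2.35, 2.94 and 3.27 CPM (-0.92, SE 0.17, adjusted p 0.0011) and stood at 5.23, 7.59 and 6.01 at 14 days. Carmn, known from smooth muscle and cardiac lineages, fell from 5.53, 6.71 and 7.48 to 4.14, 4.09 and 4.44 CPM (-0.63, SE 0.13, adjusted p 0.0021). Smooth muscle and pericyte markers were also low in these mice, at 246.3 to 341.4 CPM against 465.4 to 482.1 in sham, although 2 of the 5 rose and 2 fell, and their part was not tested. 1810058I24Rik, which RefSeq lists as protein-coding with the synonym Stmp1, fell by 0.49 (SE 0.12, adjusted p 0.0063), and Lncpint, a target of p53, by 0.53 (SE 0.21, adjusted p 0.0496). The Lncpint call was lost without mouse 4 or 5, without sham mouse 1 or 3, without library B, with DESeq2 and with total count alone.

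Imprinted lincRNAs and those of the X inactivation centre were not called by edgeR with all libraries. H19, the RNA beside Igf2 that holds miR-675, had 5.02, 5.49 and 8.12 CPM in sham, 5.09, 4.01 and 2.69 at 1 day and 5.78, 3.08 and 6.01 at 14 days. Its groups overlapped (1-day log2 fold -0.61, SE 0.30, adjusted p 0.11), though a fit of sham and 1 day alone called it. Meg3 had 4.73, 2.63 and 4.66 CPM in sham, 5.86, 5.76 and 3.94 at 1 day and 3.91, 5.72 and 8.83 at 14 days, with overlap throughout, and was called higher at 1 day with total count alone (0.90, adjusted p 0.044). Ftx was at -0.31 and Jpx at -0.37 at 1 day (adjusted p 0.12 and 0.18). Of 12 imprinted coding genes tested, 2 rose at 1 day (Mest and Peg10) and 3 fell (Igf2, Cdkn1c and Sgce), with Igf2 at -1.06 and Cdkn1c at -1.81. Among all genes, 29.4% were higher and 24.8% lower at 1 day. At 14 days 3 of the 12, Ndn, Peg3 and Sgce, were higher than sham (1.07, 0.99 and 0.88) and 1, Igf2, was lower (-0.57). The shares of all genes at 14 days were 8.75% higher and 5.64% lower.

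**Figure D4:**
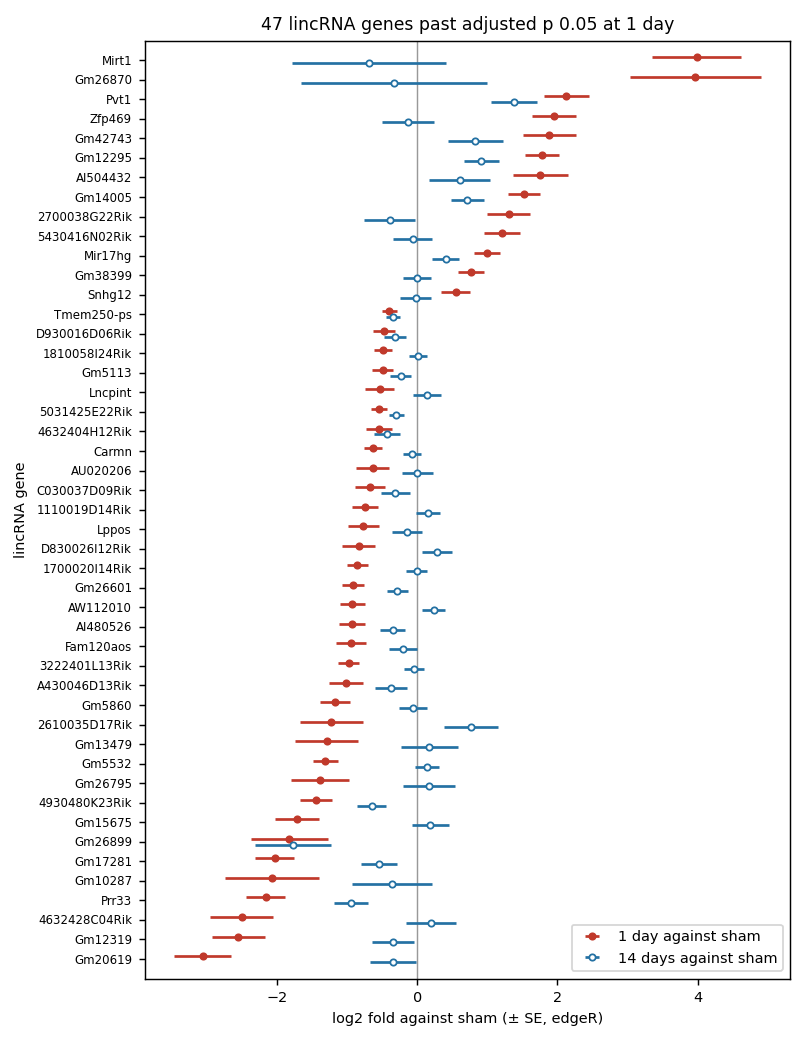
Log2 fold against sham (x axis, bars are SE from edgeR) at 1 day (red, filled) and 14 days (blue, open) for the 47 lincRNA genes past adjusted p 0.05 at 1 day (y axis). The 1-day values run from -3.06 for Gm20619 to 3.98 for Mirt1, while most 14-day values are near 0. Both contrasts use the same sham libraries.

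The second comparison set 14 days against sham, where 14.4% of all genes tested were called. Of the 85 genes, 3 rose (Pvt1, Snhg18 and Gm12295) and 2 fell (Prr33 and Tmem250-ps), where 8.75% of all genes were called higher and 5.64% lower. Of the 55 genes at the rule's level in every group, 2 rose and 1 fell, and of the other 30, 1 rose and 1 fell. The median log2 fold of the 85 genes was -0.05, against 0.01 over all genes. Tmem250-ps, which RefSeq calls protein-coding, had 21.5, 22.3 and 23.7 CPM in sham, 17.5, 15.3 and 18.4 at 1 day and 19.7, 16.6 and 16.7 at 14 days. It was at -0.35 (SE 0.10, adjusted p 0.043) at 14 days, a call lost without any single library of those groups except A and with total count alone. Without sham mouse 2 none of the 85 genes was called in either direction at 14 days, where 478 of all genes were called instead of 2033. The other 59 lincRNA genes with enough counts to be tested gave no call.

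The third comparison, 14 days against 1 day, had 29 genes higher and 16 lower, where 51.9% of all genes tested were called, 25.1% higher and 26.8% lower. Of the 55 genes at the rule's level in every group, 22 were higher and 7 lower, and of the other 30, 7 were higher and 9 lower. It shares its 1-day libraries with the first comparison and is no independent view of them. Gm20619 was 2.71 higher at 14 days (SE 0.41, adjusted p 0.00050), 4632428C04Rik also 2.71 (SE 0.44, adjusted p 0.00058), and 2610035D17Rik 1.99 (SE 0.41, adjusted p 0.0022). On the other side, Mirt1 was at -4.67 (SE 0.66, adjusted p 0.00026) and Zfp469 at -2.08 (SE 0.31, adjusted p 0.00030). Total count alone gave 13 higher and 17 lower, where 1067 of all genes were higher and 5469 lower.

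Across the 3 groups, 51 of the 85 genes differed in the joint test (8897 of 14124 genes in all), and 32 were called in no pairwise comparison. The uncalled genes among those taken by the rule for names were 13, including Dubr, Gdap10, Jpx, Ftx, H19, Meg3 and Snhg20, with 1-day log2 folds from -0.67 to 0.53.

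The position of a lincRNA beside its coding neighbour was not used by the rule. Of the 85 genes, 39 were on the strand of the nearest coding gene, 23 were divergent from it and 23 convergent, 44 lay within 5 kb of it, and 20 touched or lay inside it. In 57 pairs with both genes tested and no shared exon, the log2 folds at 1 day had a Pearson r of 0.40, which rested on the pair of Gm26870 and Gm10722 (3.97 and 6.09), whose counts are uncertain. In the other 56 pairs r was 0.17. It was 0.12 in 26 of these under 5 kb apart, against 0.59 with that pair, and 0.20 in 30 pairs farther apart. These are descriptions across genes measured in the same libraries. In 22 of the 57 pairs both genes were called, 9 in the same direction and 13 in opposite directions. Of the 85 genes 13 were higher and 34 lower, whereas 29.4% of all genes were higher and 24.8% lower. The directions were not set against those of other neighbouring genes, and a relation within pairs was not tested.

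Divergent pairs with close starts are a set chosen after its values were seen. In 10 pairs the starts lay within 1 kb on opposite strands, and 9 of these 10 lincRNA genes were called lower at 1 day, against 34 of the 85 and 24.8% of all genes. With total count alone, 1 of the 10 was called lower and 1 higher, where 1058 of all genes were lower and 6859 higher. Of their coding partners 9 could be tested, and 4 rose (Chmp7, Setd1b, Ube2q1 and Zfp146) while 1 fell (Msi2). The ratio of the 2 counts in a library needs no scaling, so it was taken as log2 of the lincRNA count over the coding count, with 0.5 added to both.

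4930480K23Rik starts 243 bases from Chmp7, a gene of membrane repair at the nuclear envelope. Its log2 ratio to Chmp7 was -1.82, -1.61 and -1.51 in sham, -4.01, -3.38 and -2.87 at 1 day and -2.12, -2.26 and -2.42 at 14 days. The 3 groups did not overlap. AI480526 starts 527 bases from Setd1b, a histone methyltransferase, and had -0.22, -0.06 and 0.25 in sham, -1.94, -1.94 and -0.83 at 1 day and 0.22, 0.16 and 0.02 at 14 days. Its 1-day libraries lay below all others. Fam120aos, 270 bases from Fam120a, had -5.69, -5.66 and -5.39 in sham against -6.59, -6.43 and -6.94 at 1 day, again without overlap.

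In 7 of the 10 pairs every 1-day ratio was below every sham ratio, and in 3 this held at 14 days. For C030037D09Rik and Msi2, which both fell, the ratio differed by -0.03 between the 1-day and sham means. Snhg18 went the other way, by 0.58 at 1 day and 1.01 at 14 days against Sema5a. The same measure in the rest of the table gave a background. Among 77 other head-to-head pairs of a tested noncoding gene and a coding gene, every 1-day ratio lay below every sham ratio in 31 (40.3%) and above in 3, with a median shift of -0.53. Among 552 pairs of coding genes, 31.9% were below and 62.9% apart in either direction, with a median shift of 0.02. The lower ratio at 1 day was therefore not particular to the 85 genes. At 14 days every ratio lay below every sham ratio in 10 of the 77 pairs (13.0%) and in 13.9% of the pairs of coding genes.

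**Figure D5:**
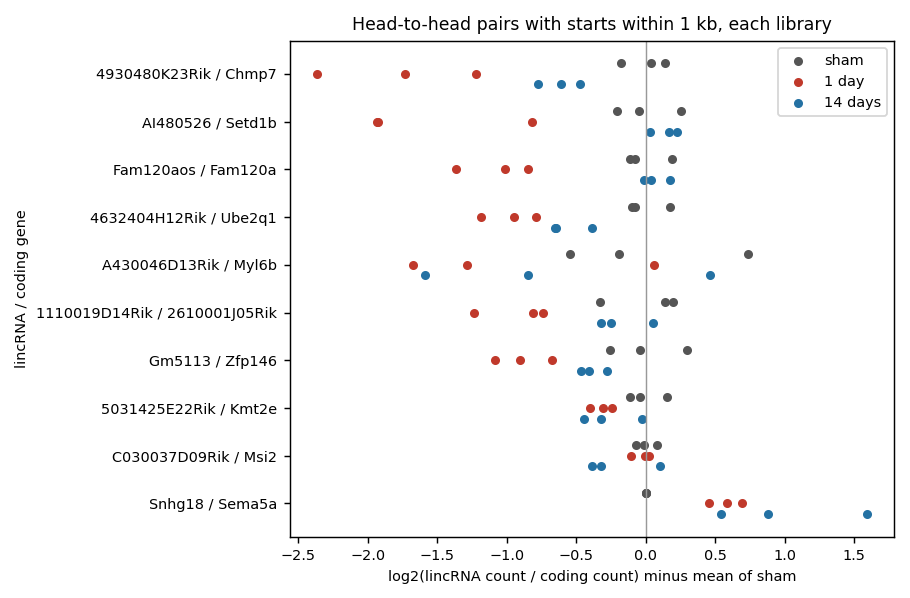
Log2 ratio of the lincRNA count to the count of its coding partner, minus the mean of sham (x axis), for the 10 head-to-head pairs with starts within 1 kb (y axis), with each point 1 library (sham grey, 1 day red, 14 days blue). The 1-day points lie to the left of all sham points in 7 pairs, overlap for C030037D09Rik and A430046D13Rik, and lie to the right for Snhg18.

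The nuclear exosome degrades short-lived nuclear RNA, many lincRNAs included. Of 16 genes of the exosome and its adaptors tested, 7 rose and none fell at 1 day, where 29.4% of all genes were higher and 24.8% lower, with a median log2 fold of 0.26 against 0.04 over all genes. Exosc2 was at 1.11, Exosc8 at 0.84, Exosc5 at 0.83 and the catalytic subunit Dis3 at 0.74. Of 12 genes of nonsense-mediated decay, only Smg9 was called at 1 day, at 0.74. Of 15 Polycomb and other chromatin partners of lincRNAs, 4 rose and 4 fell, with Ehmt2 at 0.45 and Jarid2 at -0.49, again near the shares of all genes. A link of any of these lists to the lincRNA levels was not tested.

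Gene structure was not named in the rule, but a threshold on counts not divided by length favours long genes. The median exon length was 3536 bases, against 1206 for the other lincRNA genes of the table and 4680 for coding genes at the same level. Single-block genes made up 14.1% of them (12 of 85), against 3.84% and 2.37%. Hosts of microRNAs numbered 10 and hosts of snoRNAs 6. Of 63 with a RefSeq entry, 56 were lncRNA there, 5 were protein-coding and 2 were transcribed pseudogenes. Entries were matched by symbol or synonym, and the entry matched to Gm38399 is that of the coding gene Nav1. Exon bases were shared with another annotated gene by 42, and at least 10% of them by 14. Since the strand setting of the counting is not given, values of these genes are uncertain, Mirt1, Gm42743, Gm26870, Gm15675, Gm20732, AI480526 and Tmem250-ps among those named. Gm42743 shares bases with Hist2h2bb on the same strand, which no strand setting could separate.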

How the data were processed

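Whole-number counts per gene, not normalized, were deposited by the authors for 9 libraries. TRIzol extraction and stranded libraries of total RNA depleted of ribosomal RNA were used, per the labels' protocols. The submitters' processing notes name STAR 2.7.1a and the build GRCm38 (mm10). The counting program, its annotation and its strand setting remain not given in the sources used here.

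Of the 38293 gene identifiers, 36345 were found in GENCODE M21, which gave biotypes, exons and neighbours. The quasi-likelihood test of edgeR 4.0.16 (R 4.3.3) was run on the counts with TMM scaling, its filter on low counts and all 9 libraries in 1 fit. Adjusted p is the Benjamini-Hochberg value over the 14124 genes kept, with a threshold of 0.05, and all 85 lincRNA genes were kept. CPM per kb divides by summed exon length. Pairs of libraries within a group differed by more than sampling noise, with a chi-square of 7.42 to 97.3 per degree of freedom. The p-values rest on 3 mice a group.

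Names were given to genes by level (the 10 highest per kb), by fold (the 8 largest per comparison and direction among called genes whose groups do not overlap), by symbol (not a clone name) and as small-RNA hosts, 47 in all. The lincRNA genes and lists were chosen with earlier results of these data known. Alternatives were other scalings, DESeq2 1.42.0, limma-voom (limma 3.58.1), other filters, a test against a 1.5-fold change, a fit of the groups compared alone, each library left out, and stricter or wider membership. The test was also tried on counts simulated from the mean sham profile for the sham and 1-day libraries, with known changes. That trial does not bear on the choice of scaling. RefSeq (GRCm38.p6) gave the microRNA and promoter sequences, and GENCODE M21 the transcripts. Figures were drawn with matplotlib 3.10.9.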

Additional observations from a re-analysis of the deposited data

How the results depend on the processing

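No paired analysis was possible because the groups share no mouse numbers. Of 2671 values of the 47 named genes under an alternative, 2433 kept their direction and side of the threshold, 146 lost a call, 35 gained one, and 56 uncalled values moved. In 1 case a called value changed sign and the call was lost, Tmem250-ps at 1 day against sham with total count alone (0.092, adjusted p 0.68). With total count alone, the counts at 1 day against sham became 24 higher and 13 lower. Of all genes, 6859 were then higher and 1058 lower. At 14 days against sham the count became 0 lower with 832 of all genes called. At 14 days against 1 day it became 13 higher, where 1067 of all genes were higher and 5469 lower. The test against a 1.5-fold change called 2688 of all genes at 1 day against sham, with 11 lincRNA genes higher and 11 lower. At 14 days against sham it called 174 of all genes, with 0 lincRNA genes higher and 0 lower. At 14 days against 1 day it called 2124 of all genes, with 13 lincRNA genes higher and 5 lower. DESeq2 called 4 lower at 14 days against sham. Among genes at the level in each group, 5 were higher at 1 day against sham, 1 lower at 14 days against sham and 7 lower at 14 days against 1 day. Among genes that share no exon base, these were 4, 1 and 5.

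Leaving out each library gave, at 1 day against sham, 6145 to 8511 genes in all, 12 to 14 lincRNA genes higher and 25 to 40 lower, with 14 and 40 without mouse 6. At 14 days against sham it gave 478 to 3221 in all, 0 to 4 higher and 0 to 5 lower. Single libraries decided these calls: 912, 478 and 1025 genes were called without sham mouse 1, 2 and 3, 722 and 775 without library B and C, and 3221 without mouse 6. Of the lincRNA genes, 0 were higher without sham mouse 2 and 1 without library B or C, and 0 were lower without sham mouse 1 or 2 or library B or C, 4 without library A and 5 without mouse 6. At 14 days against 1 day it gave 5604 to 8360 in all, 20 to 34 higher and 11 to 16 lower. Membership was 129 genes at a level of 0.5 and 55 at a level of 2, and 55 genes reached the level in each group. Without mitochondrially encoded and ribosomal RNA genes the share of counts was 1.46% in sham, 2.0% at 1 day and 1.34% at 14 days. The neighbour correlation without Gm26870 and the head-to-head count with total count alone were added after the data were seen. Depth limits genes under 2 CPM, for which 1 library holds few counts.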
